A study of Mus musculus with 60 samples.

Results

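The genes described here are the cytochrome P450 genes of the mouse, taken as every gene of the count table whose symbol is Cyp followed by a family number, a subfamily letter and a member number. The rule found 99 of 24411 genes; Cyp51 and pseudogenes fall outside it. A read was counted in 73 of the 99 in at least 1 library, 26 were at 0 in all 15, and 30 were abundant enough to be tested among 9001 tested genes. The 15 libraries are Kupffer cell preparations, 1 per mouse, from C57BL/6J mice labelled male and 8 weeks old. In 5 wild-type mice only corn oil had been injected, in 5 wild-type mice a single dose of carbon tetrachloride (CCl4, 2 µl per g of body weight, diluted 1:4 in corn oil), and in 5 Trem1-deficient mice the same dose of CCl4. All were killed 12 h later. Hepatocytes had been spun out, cells bearing CD11b taken away with beads, and the cells bearing F4/80, a macrophage surface protein, kept as Kupffer cells. The labels do not say how the Trem1 deficiency was made, and the design holds no Trem1-deficient mice given oil.

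P450 enzymes are haem proteins that add oxygen to drugs, toxins, fatty acids, sterols and retinoids, using electrons passed on by P450 reductase. Families 1 to 3 and much of family 4 are known mainly from hepatocytes, where many forms are zoned: Cyp2e1 and Cyp1a2 sit around the central vein and Cyp2f2 around the portal tract. Cyp2e1 turns CCl4 into the radical that kills pericentral hepatocytes. Other forms are known from many tissues or from leukocytes, such as Cyp27a1, which makes 27-hydroxycholesterol, and Cyp4f18, which inactivates leukotriene B4 in mouse myeloid cells. Several liver forms differ between the sexes, among them the male forms Cyp2d9, Cyp4a12a and Cyp7b1.

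Library totals ran from 812320 to 2593004 counts, and 3 counts, the limit set by a count of 0, came to 1.16 to 3.69 CPM (counts per 1000000 gene counts of the library). Reads are not unique molecules, and such limits cover counting error only. Trem1 stood at 32.9 to 109 CPM in the oil group, 111 to 575 CPM in wild-type mice after CCl4 and 1.17 to 10.9 CPM in Trem1-deficient mice, below every wild-type library. Of 12 Kupffer cell markers, 11 (all but Timd4) had reads in every library, and their summed level was 28777 to 69219 CPM with oil, 4920 to 16694 CPM in wild-type mice after CCl4 and 46866 to 66219 CPM in Trem1-deficient mice. Markers of other leukocytes, here monocytes and neutrophils, were present too. The 10 monocyte markers summed to 553 to 1414 CPM with oil, 2249 to 4813 CPM in wild-type mice after CCl4 and 769 to 1772 CPM in Trem1-deficient mice. Of 10 neutrophil markers 5 had reads in every library (not Mmp9, Lcn2, Cxcr2, Camp and Ngp), with sums of 205 to 1579, 1188 to 11660 and 417 to 3793 CPM. Stellate cell markers were sparse: 1 of 10 had reads in every library, and their sum was 65.4 to 448 CPM. The preparations were not free of hepatocyte RNA: of 16 hepatocyte markers that are no P450, 15 (all but Cps1) had reads in every library. Their sum was 3656 to 15226 CPM with oil, 6638 to 31860 CPM in wild-type mice after CCl4 and 1581 to 12154 CPM in Trem1-deficient mice. In such bulk samples fewer cells of a type and less RNA per cell cannot be told apart. By their index numbers in the labels the libraries form 2 series. The smaller has 7 libraries, those of all oil mice and of mice 1 and 2 of the Trem1-deficient group; the larger has 8, those of all wild-type CCl4 mice and of Trem1-deficient mice 3 to 5. Xist reads were 72 to 1552 in the series of 7 and 1 to 31 in the series of 8. Y-linked reads were 0 to 7 and 134 to 425, although every mouse is labelled male. In wild-type mice the treatment, the index series and these sex-linked reads therefore cannot be told apart.

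Which P450 genes a Kupffer cell preparation holds was read first from the oil group. P450 genes took 0.0689 to 0.109% of gene counts with oil, 0.166 to 0.439% in wild-type mice after CCl4 and 0.0982 to 0.167% in Trem1-deficient mice. At least 3 counts in each of the 5 oil libraries were found for 11 of the 99 genes. Of these, 5 were on a list of 54 hepatocyte forms (Cyp1a2, Cyp2a12, Cyp2c29, Cyp2d13, Cyp2e1), 4 were on a list of 15 forms known from many tissues or from myeloid cells (Cyp4f13, Cyp4f18, Cyp4v3, Cyp27a1), and Cyp26b1 and Cyp4b1 were on neither list. The same count was 18 in the wild-type CCl4 group and 14 in the Trem1-deficient group, and Cyp2a12, Cyp4b1, Cyp4f18 and Cyp26b1 reached it in all 15 libraries. With a floor of 1 or 10 counts in place of 3, the oil group held 16 or 8 genes.

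**Figure D1:**
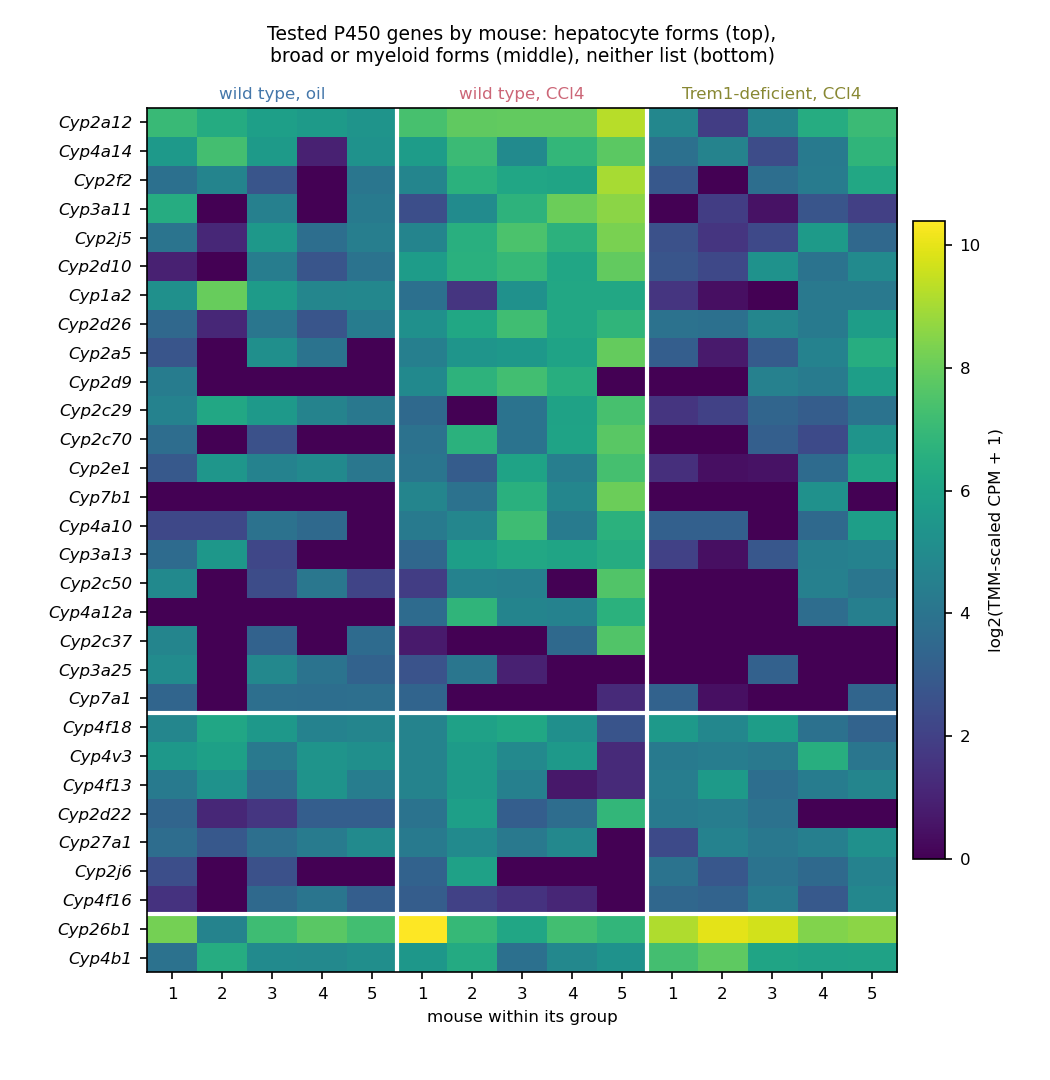
Log2(TMM-scaled CPM + 1) of the 30 tested P450 genes (vertical axis) in the 15 mice (horizontal axis, numbered within their group). The upper block holds 21 hepatocyte forms, brightest in the wild-type CCl4 group, the middle block 7 broad or myeloid forms, and the lowest block Cyp26b1 and Cyp4b1.

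Which kind of P450 read was most common differed by mouse. Hepatocyte forms made up 44.8 to 71.0% of P450 reads with oil, 28.1 to 94.4% in wild-type mice after CCl4 (median 84.1%) and 4.57 to 61.2% in Trem1-deficient mice (median 15.3%). Cyp26b1 alone made up 2.42 to 29.6%, 2.27 to 63.4% and 25.5 to 68.9% in the same order. The broad or myeloid forms summed to 107 to 157 CPM with oil, 100.4 to 309 CPM in wild-type mice after CCl4 and 143 to 186 CPM in Trem1-deficient mice, 3 ranges that overlap. The hepatocyte forms summed to 324 to 636 CPM, 467 to 4139 CPM and 76.4 to 965 CPM.

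The retinoic acid hydroxylase Cyp26b1 (ENSMUSG00000063415, chr6:84571414-84593908 on GRCm38) was the member with the highest level. It stood at 295, 23.8, 144, 213 and 150.04 CPM (TMM-scaled, as are all single-gene levels here) in oil mice 1 to 5. In wild-type mice after CCl4 it stood at 1340, 122.8, 70.6, 152 and 112 CPM, and in Trem1-deficient mice at 575, 1010, 817, 340 and 384 CPM. Every Trem1-deficient mouse lay above every oil mouse, and wild-type CCl4 mouse 1 lay above all others. Trem1-deficient mice also lay above wild-type CCl4 mice 2 to 5, so mouse 1 alone makes the ranges of the 2 CCl4 groups overlap. Against oil the log2 fold change was 1.92 (SE 0.83) in the Trem1-deficient group and 1.12 (SE 0.81) in the wild-type CCl4 group, neither past the threshold of 0.05 (p adjusted by Benjamini-Hochberg over all tested genes, edgeR quasi-likelihood test, 0.967 and 0.514). Within the series of 7, Trem1-deficient mice 1 and 2 against oil gave 2.26 (SE 0.99).

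Cyp4b1 (chr4:115624725-115647723), a lung-type enzyme that activates furans and hydroxylates fatty acids, stood at 14.1 to 86.4 CPM with oil, 13.4 to 79.5 CPM in wild-type mice after CCl4 and 61.2 to 226 CPM in Trem1-deficient mice. Trem1-deficient mice 1 and 2 were highest, at 154 and 226 CPM, and the groups overlap. The log2 fold change of Trem1-deficient against wild-type CCl4 mice was 1.48 (SE 0.62, edgeR adjusted p = 0.237). Markers of sinusoidal endothelium, another non-parenchymal cell type, moved with these levels in part: of 10, 9 (all but Bmp2) had reads in every library. Their sum was 3952, 5557, 3627, 1416 and 2501 CPM in Trem1-deficient mice 1 to 5 and 2399 CPM in wild-type CCl4 mouse 1, whose group otherwise ran from 1182 to 1316 CPM. In the oil group it was 978 to 3359 CPM, with the top value in mouse 2. In that mouse Cyp26b1 was the lowest of the oil group (23.8 CPM) and Cyp4b1 the highest (86.4 CPM). Their part in the Cyp26b1 and Cyp4b1 levels was not tested.

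Of the 15 broad or myeloid forms, 12 had a read in some library, 7 were tested and 0 passed the threshold in any comparison. At an unadjusted p under 0.05 in edgeR, 1 of 7 passed for wild-type CCl4 against oil, as did 1707 of all 9001 tested genes. It was Cyp2d22, which DESeq2 also called. Over all tested genes the share called in either direction was 5.13% for wild-type CCl4 against oil and 2.06% for Trem1-deficient against wild-type CCl4 mice, so that 0 of 7 tells little. Their median log2 fold change was 0.06 for wild-type CCl4 against oil, where the median of all 9001 genes was 0.06, and 0.09 for Trem1-deficient against wild-type CCl4 mice, where it was -0.03. Cyp4f18, the leukotriene B4 hydroxylase, averaged 38.1 ± 20.1, 39.6 ± 27.02 and 30.1 ± 19.9 CPM (SD, n = 5) in the oil, wild-type CCl4 and Trem1-deficient groups. Cyp27a1, the mitochondrial sterol 27-hydroxylase, averaged 16.2 ± 9.24, 18.7 ± 11.8 and 20.3 ± 11.5 CPM (SD, n = 5). Cyp4v3, a fatty acid hydroxylase whose human counterpart is mutated in a corneoretinal dystrophy, averaged 39.4 ± 15.3, 30.1 ± 19.6 and 32.3 ± 32.2 CPM (SD, n = 5). Cyp4f13, of the same 4F subfamily as Cyp4f18, averaged 25.6 ± 12.6, 19.4 ± 20.01 and 25.5 ± 14.3 CPM (SD, n = 5). The part of the monocyte, neutrophil and Kupffer cell marker sums given above in these levels was not tested. For these 4 genes the differences between group means were smaller than the SD within a group. Wild-type CCl4 mouse 5 was the lowest of its group for Cyp4f18 (5.53 CPM) and Cyp27a1 (0 CPM), and it had the highest sum of hepatocyte forms of all mice.

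**Figure D2:**
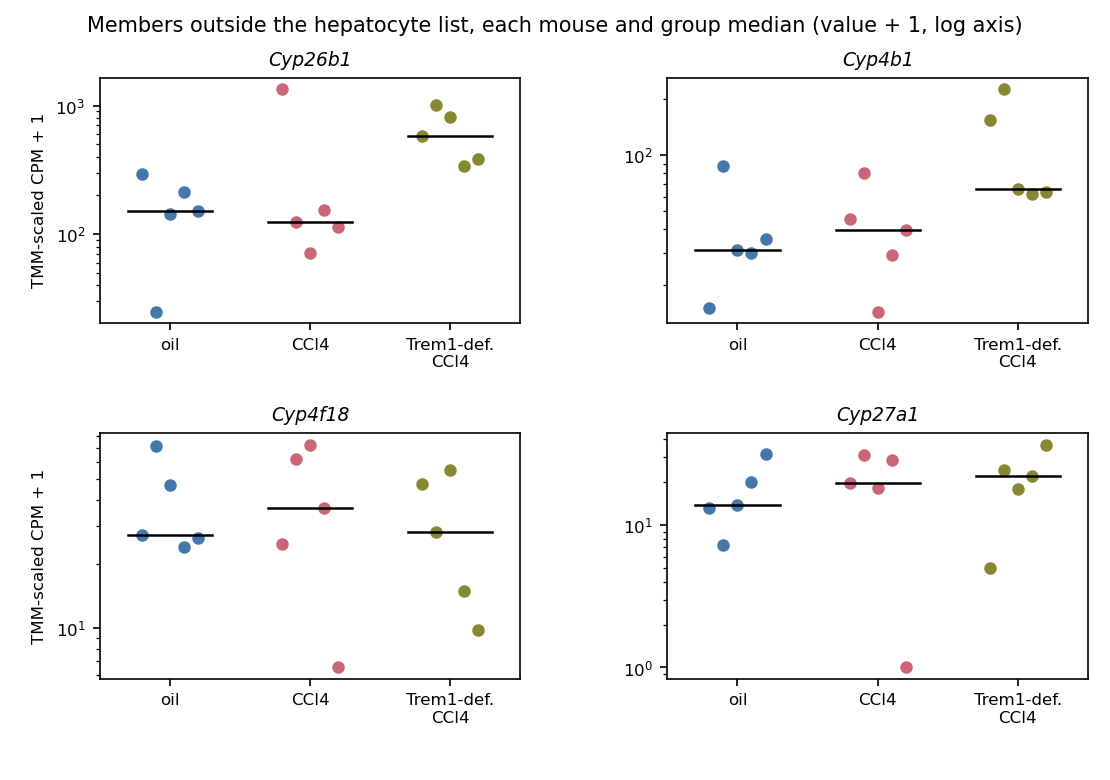
TMM-scaled CPM + 1 (log axis) of 4 members outside the hepatocyte list, each point a mouse and each line a group median. Cyp26b1 runs from 23.8 to 1340 CPM and all 5 Trem1-deficient mice lie above the oil mice, while the 3 groups overlap for Cyp4b1, Cyp4f18 and Cyp27a1.

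In wild-type mice after CCl4, 5 members were higher than with oil and 0 were lower; among all tested genes 3.04% were called higher. All 5 are hepatocyte forms: Cyp2d10, Cyp2d26, Cyp2j5, Cyp4a12a and Cyp7b1. The filter on low counts asks for about 7.26 CPM in 5 libraries. Cyp2d10, Cyp2d26 and Cyp2j5 were over that level in 2, 3 and 4 oil libraries and in all 5 wild-type CCl4 libraries. Like Cyp4a12a and Cyp7b1, they were therefore tested only through mice given CCl4, which limits all 5 calls. At an unadjusted p under 0.05 the edgeR test gave 13 of the 30 members and 1707 of all 9001 tested genes. DESeq2 called 10 members and 1015 genes in all. The 21 tested hepatocyte forms had a median log2 fold change of 2.65 and 18 positive values, beside a median of 0.06 and 51.7% positive values over all tested genes. Some of the 21, such as Cyp2c70, Cyp4a12a and Cyp7b1, passed the filter on low counts only through mice given CCl4. That median and the 18 positive values are therefore a description and no test. The 16 hepatocyte markers, which are no P450, moved the same way, with a median of 2.12.

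Cyp2d10 and Cyp2d26, members of the 2D subfamily that oxidises many drugs, lie in 1 gene cluster of chromosome 15 (chr15:82402846-82407195 and chr15:82790101-82794294). Cyp2d10 stood at 0.94, 0, 20, 5.76 and 14.3 CPM in the oil mice and at 53.2, 95.6, 124, 69.3 and 239 CPM in the wild-type CCl4 mice. The groups do not overlap, and the log2 fold change was 3.76 (SE 0.90, edgeR adjusted p = 0.0104). Cyp2d26 stood at 1.25 to 19.6 CPM with oil and 35.9 to 147 CPM after CCl4, again without overlap (log2 fold change 3.01, SE 0.78, edgeR adjusted p = 0.0189). Cyp2j5, an arachidonic acid epoxygenase (chr4:96628773-96664154), stood at 15.0, 1.25, 45.0, 12.5 and 20.6 CPM with oil and at 24.6, 93.6, 173, 102 and 317 CPM after CCl4. Its ranges overlap through oil mouse 3 and CCl4 mouse 1, and the log2 fold change was 2.89 (SE 0.85, edgeR adjusted p = 0.0437).

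The fatty acid hydroxylase Cyp4a12a (chr4:115299046-115332815) and the oxysterol 7-hydroxylase Cyp7b1 (chr3:18071950-18243338) had 0 reads in all 5 oil libraries. Cyp4a12a had 17, 111, 26, 41 and 71 reads in wild-type CCl4 mice 1 to 5, which is at least 94.3-fold higher against 3 counts over the oil group (edgeR adjusted p = 0.00589). Cyp7b1 had 38, 14, 101, 46 and 190 reads, at least 138-fold higher on the same basis (edgeR adjusted p = 0.0330). Both passed the filter on low counts only through mice given CCl4, and so could be tested only because they were high there. Other hepatocyte forms did not pass the threshold. Cyp2a12, the hepatocyte form with the highest mean level over all libraries, stood at 41.1 to 130 CPM with oil and 164 to 623 CPM after CCl4 (log2 fold change 2.05, SE 0.64, edgeR adjusted p = 0.0635). The naphthalene-oxidising periportal enzyme Cyp2f2 stood at 0 to 25.04 CPM with oil and 25.3 to 529 CPM after CCl4 (log2 fold change 3.72, SE 1.16, edgeR adjusted p = 0.0691). Cyp2a5, the coumarin hydroxylase, stood at 0 to 35.01 and 21.3 to 242 CPM (2.89, SE 1.17, edgeR adjusted p = 0.167). Cyp7a1, the rate-limiting enzyme of bile acid synthesis, stood at 0 to 12.9 and 0 to 9.31 CPM (-2.08, SE 1.55, edgeR adjusted p = 0.516). The groups do not overlap for Cyp2a12 and Cyp2f2, and they do for Cyp2a5 and Cyp7a1. Cyp2c70 and Cyp4a10 likewise had all wild-type CCl4 mice above all oil mice without passing the threshold. Cyp2c70 was over the filter in 1 oil, 2 Trem1-deficient and 5 wild-type CCl4 libraries, so it too was tested only because it was high after CCl4.

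Cyp4a12a and Cyp7b1 are also known male forms, and their groups differ in index series and in sex-linked reads.

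The call for these 5 genes ended when the index series was added to the fit, as estimated from the Trem1-deficient mice. Then 0 members were called, where only 37 of all 9001 tested genes were, so the 0 is not particular to P450 genes. The median of the hepatocyte forms was -0.34 and that of the hepatocyte markers -0.29. When 1 mouse was left out, the count of members called higher was 2 without oil mouse 4 or CCl4 mouse 3, and 3 without oil mouse 2 or oil mouse 5. It was 8 without CCl4 mouse 1. Cyp2d10 and Cyp4a12a passed in all 15 of these fits, Cyp2d26 in 13, Cyp7b1 in 9 and Cyp2j5 in 6.

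**Figure D3:**
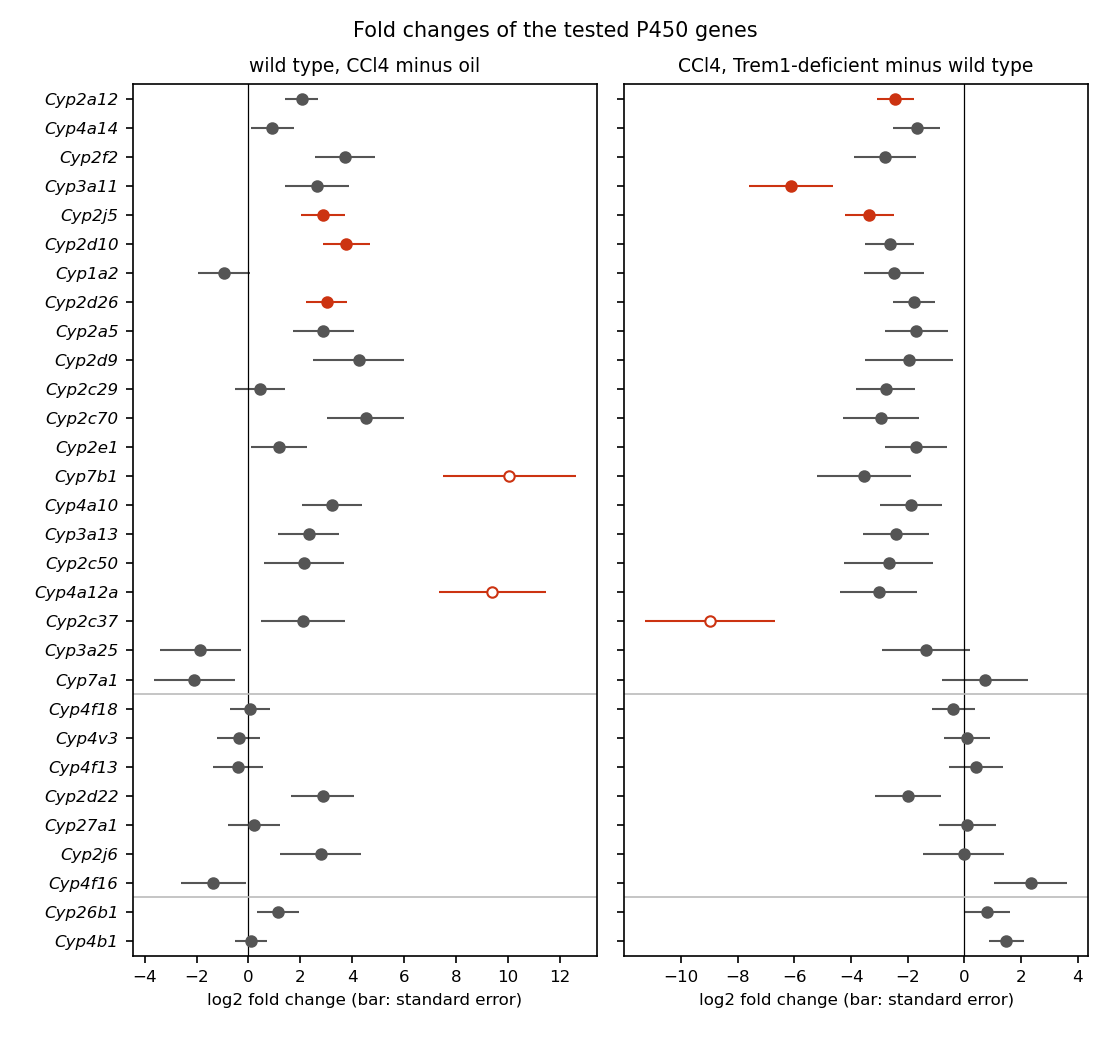
Log2 fold change of each tested P450 gene with its standard error, for wild-type CCl4 against oil (left) and Trem1-deficient against wild-type mice after CCl4 (right). Red marks an edgeR adjusted p under 0.05 and an open circle a gene with 0 reads in all mice of one of the groups, whose fitted value depends on the prior count; grey lines part hepatocyte forms, broad or myeloid forms and neither list.

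Cyp2e1 (ENSMUSG00000025479, chr7:140763739-140774987) showed no change past the threshold. It had 7, 34, 33, 31 and 34 reads in oil mice 1 to 5, 23, 7, 68, 36 and 115 reads in wild-type CCl4 mice and 5, 1, 1, 14 and 114 reads in Trem1-deficient mice. The 3 groups overlap, and mouse 5 was highest in both CCl4 groups. The log2 fold change was 1.16 (SE 1.08, edgeR adjusted p = 0.628) for wild-type CCl4 against oil, -1.73 (SE 1.10, edgeR adjusted p = 0.479) for Trem1-deficient against wild-type CCl4 mice, and -0.56 (SE 1.08, edgeR adjusted p = 1.00) for Trem1-deficient mice against oil. With the index series in the fit, the first of these became -3.43 (edgeR adjusted p = 0.811), on the other side of 0.

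The reads of each P450 gene were then set against the reads of the 16 hepatocyte markers of the same library. Cyp2e1 came to 9.40 to 81.8 reads per 10000 hepatocyte-marker reads with oil (median 36.3), 2.08 to 46.0 in wild-type mice after CCl4 (median 18.1) and 1.06 to 57.6 in Trem1-deficient mice (median 8.26). On a log2 scale of CPM + 1, the mean ratio differed from that of the oil group by -1.29 in wild-type CCl4 mice (two-sided exact permutation p = 0.167) and by -1.33 in Trem1-deficient mice (exact permutation p = 0.159). The 2 CCl4 groups differed by -0.04 (exact permutation p = 0.937), and with Alb alone as the denominator by 0.62 (exact permutation p = 0.540). These 3 comparisons share groups, and 5 against 5 mice allow 252 splits. Without Trem1-deficient mouse 5, which had the highest ratio of its group, that group differed from oil by -1.87 (exact permutation p = 0.0397, not adjusted). Of 38 alternative runs of the Cyp2e1 ratio, this was the 1 that came out stronger, and 37 stayed the same. Being picked from many runs, it is no support for a lower Cyp2e1 ratio.

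Against hepatocyte-marker reads, 6 of the 7 tested pericentral forms had a lower median in each CCl4 group than with oil, most with overlapping ranges. The exception was Cyp2a5, with medians of 8.05 with oil, 25.2 in wild-type CCl4 mice and 33.2 in Trem1-deficient mice, and overlapping ranges. Among all 21 tested hepatocyte forms, the median in wild-type CCl4 mice was lower than with oil for 9 and higher for 12. In Trem1-deficient mice it was lower for 10, higher for 9 and equal for 2. Cyp1a2, which oxidises caffeine and aromatic amines, came to 52.4, 146, 86.9, 71.3 and 60.8 reads per 10000 hepatocyte-marker reads in oil mice 1 to 5. In wild-type mice after CCl4 it came to 15.8, 0.595, 11.2, 34.5 and 21.6, and in Trem1-deficient mice to 9.91, 2.44, 0, 24.1 and 15.2, so that both CCl4 groups lay below the oil group without overlap. Cyp2c29, an epoxygenase, came to 33.6 to 83.2 with oil, 0 to 48.0 in wild-type CCl4 mice and 9.91 to 23.4 in Trem1-deficient mice, where the ranges of the last group and oil do not overlap. All pericentral forms together came to 214 to 332, 31.8 to 405 and 42.5 to 178 reads, with medians of 304, 87.1 and 66.1. The hepatocyte forms outside that list came to medians of 529, 486 and 481. By this ratio the wild-type CCl4 range lay wholly below the oil range for Cyp1a2 and wholly above it for Cyp4a12a and Cyp7b1. The other 18 of the 21 tested hepatocyte forms overlapped. Cyp4a12a and Cyp7b1 had 0 oil reads and were tested only through mice given CCl4, so their separation is no support. The share of all genes with such ranges was not computed. No test was run on these ratios other than that of Cyp2e1. By its level, without the division, Cyp1a2 had a log2 fold change of -0.94 (SE 1.01, edgeR adjusted p = 0.684) for wild-type CCl4 against oil.

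**Figure D4:**
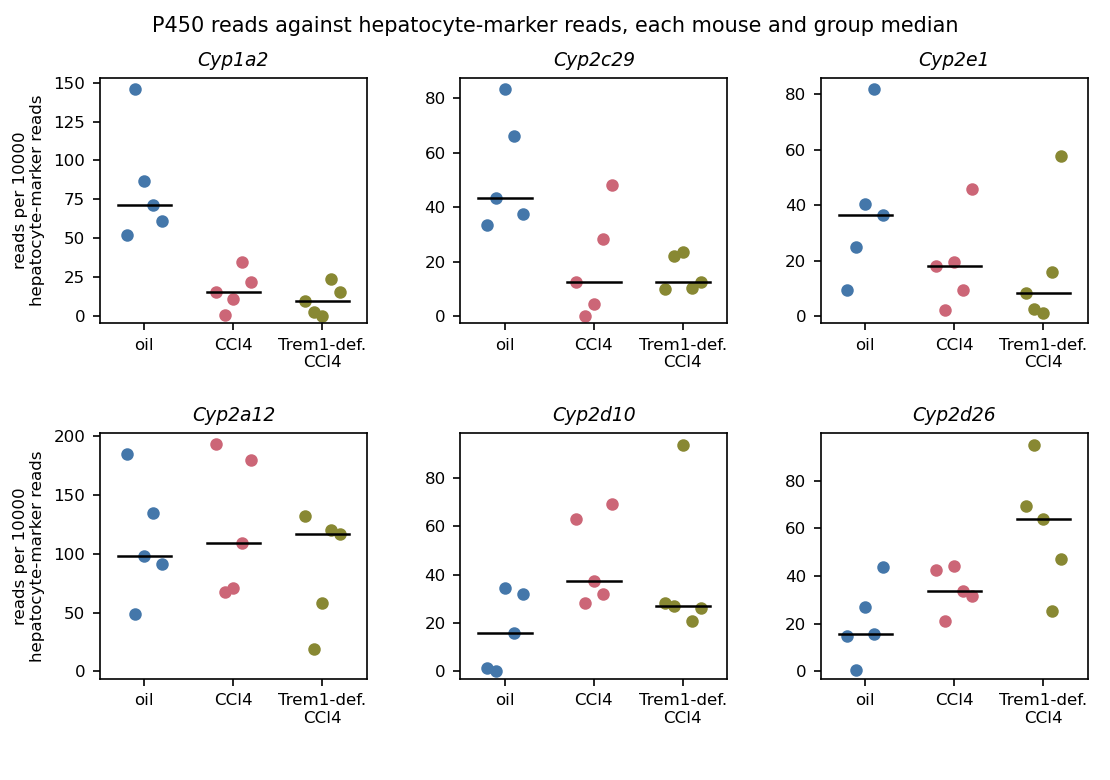
Reads of 6 hepatocyte forms per 10000 hepatocyte-marker reads, each point a mouse and each line a group median. Cyp1a2 lies at 52.4 to 146 with oil and at 34.5 or less after CCl4, whereas the ranges of Cyp2a12, Cyp2d10 and Cyp2d26 overlap between groups.

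The male forms followed the index series, and with it the sex-linked reads. Cyp2d9, a testosterone hydroxylase of male liver, had 21 reads in 1 of the 7 libraries of the smaller series and 633 reads in 7 of the 8 of the larger. Cyp4a12a had 0 reads in the 7 and 317 reads in 7 of the 8, and Cyp7b1 had 0 reads in the 7 and 435 reads in 6 of the 8. The female forms Cyp2a4, Cyp2b9, Cyp2b13, Cyp2c40 and Cyp2c69 had 60, 18, 7, 14 and 20 reads in the 7 libraries and 2, 0, 0, 0 and 0 in the 8. Of these reads, 58, 16, 7, 14 and 20 were in the oil libraries. Trem1-deficient mice 1 and 2 had 2 and 0 reads of Cyp2a4, 2 and 0 of Cyp2b9 and 0 of the others. For these female forms the index series therefore cannot be told apart from oil against CCl4. Other forms of the female list did not follow the series: Cyp4a14 had reads in all 15 libraries (433 and 825), Cyp2b10 had 19 and 11 reads, and Cyp17a1 had 6 and 74. The Trem1-deficient group holds both series under 1 genotype and treatment. There the 4 male forms summed to 0 and 0 reads in mice 1 and 2 and to 52, 87 and 131 reads in mice 3 to 5. Cyp2d9 had 52, 23 and 95 reads in mice 3 to 5, Cyp4a12a had 0, 15 and 36, and Cyp7b1 had 46 reads in mouse 4 and 0 in mice 3 and 5. None of the 3 passed the edgeR threshold between mice 3 to 5 and mice 1 and 2 (adjusted p of 0.598, 0.675 and 1). In all, 0 of 30 members were called between these mice, where 0.0667% of all tested genes were. At an unadjusted p under 0.05 in edgeR there were 9 members and 243 of all 9001 tested genes. DESeq2 called 1 member, Cyp2c70, and 61 genes in all. Hepatocyte markers differed too, at 2336 and 1581 CPM in mice 1 and 2 and 4400 to 12154 CPM in mice 3 to 5, and their part in the male-form counts was not tested.

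**Figure D5:**
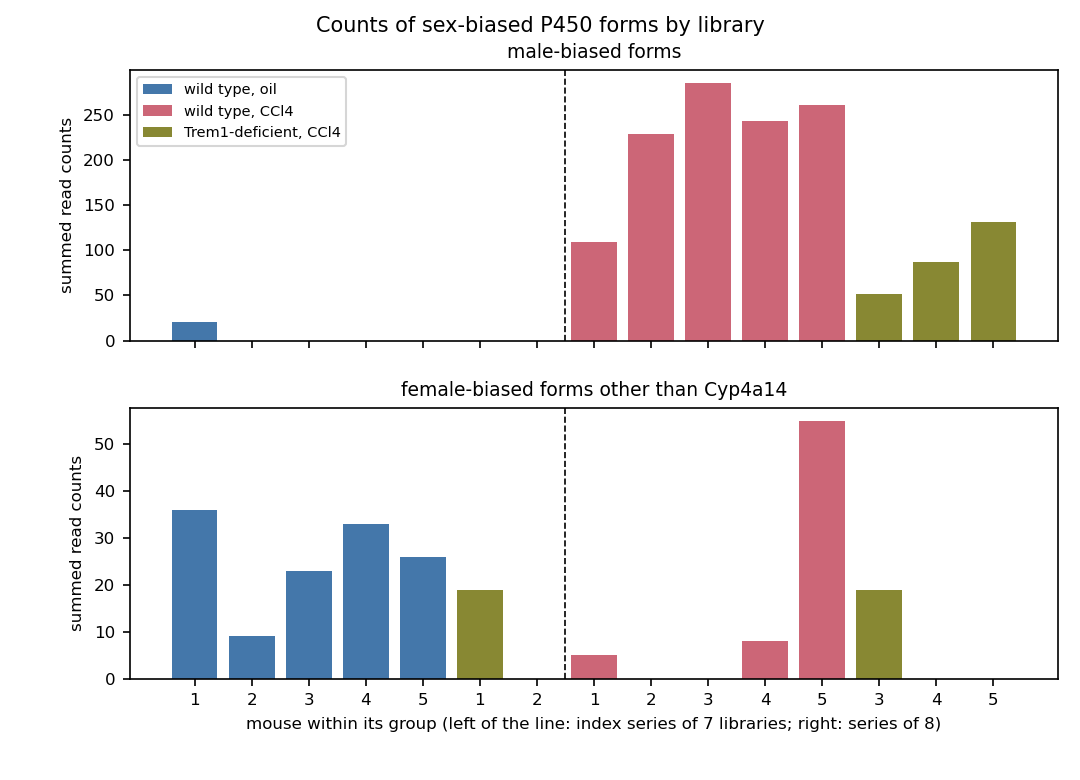
Summed read counts of 4 male-biased P450 forms (top) and of the female-biased forms other than Cyp4a14 (bottom) in each library, ordered by index series. The male forms have 21 reads in 1 and 0 in the other 6 libraries of the smaller series, and 52 to 285 in each library of the larger.

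In Trem1-deficient mice after CCl4, 4 members were lower than in wild-type mice after CCl4 and 0 were higher; among all tested genes 1.28% were called lower. The 4 are the hepatocyte forms Cyp2a12, Cyp2c37, Cyp2j5 and Cyp3a11. At an unadjusted p under 0.05 the edgeR test gave 13 of 30 members and 1365 of all 9001 tested genes. DESeq2 called 6 members and 608 genes in all. The tested hepatocyte forms had a median log2 fold change of -2.48, with 20 of 21 values negative, and the hepatocyte markers a median of -2.34. Over all tested genes the median was -0.03. The limit that the filter sets on these 21 forms, given above, holds here too. This comparison uses the same wild-type CCl4 mice as the comparison with oil, so the 2 are not independent. With Trem1-deficient mice 3 to 5 alone, which share their index series with the wild-type CCl4 mice, 0 members were called, where 0.855% of all tested genes were. The median of the hepatocyte forms was then -1.86. In edgeR 5 of the 21 hepatocyte forms and 1017 of all 9001 tested genes had an unadjusted p under 0.05.

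Cyp3a11, the main drug-oxidising 3A enzyme of mouse liver (chr5:145854426-145879964), stood at 84.6, 0, 22.2, 0 and 18.2 CPM with oil and at 4.65, 31.2, 104, 266 and 382 CPM in wild-type mice after CCl4. In Trem1-deficient mice it stood at 0, 2.71, 0.435, 5.71 and 2.93 CPM, so that CCl4-treated wild-type mouse 1 and oil mice 2 and 4 fell within their range. The log2 fold change of Trem1-deficient against wild-type CCl4 mice was -6.12 (SE 1.48, edgeR adjusted p = 0.0395) and, within the larger index series, -5.74 (edgeR adjusted p = 0.174). Against hepatocyte-marker reads Cyp3a11 also ran low there, at 0 to 19.5 per 10000, beside 5.51 to 122 in wild-type CCl4 mice, and the ranges overlap.

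Cyp2a12 (chr7:27029081-27037375), which hydroxylates steroids and bile acids, stood at 164, 228.5, 236, 238 and 623 CPM in wild-type CCl4 mice and at 26.7, 2.71, 23.9, 85.7 and 136 CPM in Trem1-deficient mice. The groups do not overlap (log2 fold change -2.44, SE 0.65, edgeR adjusted p = 0.0467; -1.86 and 0.207 within the larger series). Per 10000 hepatocyte-marker reads its medians were 97.9, 109 and 117 in the oil, wild-type CCl4 and Trem1-deficient groups. Cyp2j5 stood at 24.6 to 317 CPM in wild-type CCl4 mice and 2.03 to 49.0 CPM in Trem1-deficient mice, and mouse 4 of the Trem1-deficient group and mouse 1 of the other made the ranges overlap (log2 fold change -3.36, SE 0.87, edgeR adjusted p = 0.0366; -2.76 and 0.218 within the larger series). Cyp2c37, a pericentral epoxygenase (chr19:39992424-40012243), had 0 reads in all 5 Trem1-deficient libraries and 1, 0, 0, 19 and 136 reads in wild-type CCl4 mice. That is at least 96.6-fold lower against 3 counts over the Trem1-deficient group (edgeR adjusted p = 0.0451; 0.178 within the larger series). Of the wild-type reads 136 of 156 came from mouse 5, and without that mouse the edgeR adjusted p was 0.154.

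When 1 mouse was left out, the number of members called lower was 0 without Trem1-deficient mouse 1, 2 or 3 or wild-type CCl4 mouse 4. It was 1 without oil mouse 3 or 5, Trem1-deficient mouse 5 or wild-type CCl4 mouse 3 or 5, and 2 without Trem1-deficient mouse 4. A member was called higher, 1 in all, without wild-type CCl4 mouse 1. Of these 15 fits Cyp2j5 passed in 8, Cyp3a11 in 6, Cyp2c37 in 5 and Cyp2a12 in 3.

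Against the oil group, 0 of 30 members were called in Trem1-deficient mice, where 0.233% of all tested genes were. In edgeR 8 members and 419 of all 9001 tested genes had an unadjusted p under 0.05. DESeq2 called 0 members and 75 genes in all. The median of the hepatocyte forms was -0.39 and that of the hepatocyte markers -0.41. Cyp1a2 and Cyp2c29 had Trem1-deficient ranges wholly below the oil ranges, at 0 to 17.6 against 25.9 to 248 CPM and at 2.00 to 14.7 against 16.7 to 73.9 CPM. Their log2 fold changes were -3.42 (SE 1.10, edgeR adjusted p = 0.432) and -2.35 (SE 1.02, edgeR adjusted p = 0.907). Within the series of 7, Trem1-deficient mice 1 and 2 against oil gave a median of -2.41 for the hepatocyte forms and -2.20 for the hepatocyte markers.

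Reads of single forms were uneven between mice of a group. Of the 30 tested members, 20 had a library with 0 reads beside one with 10 or more in the same group. In the oil group this held for 13: oil mouse 2 had 198 reads of Cyp1a2 and 66 of Cyp2a12, yet 0 of Cyp3a11, Cyp2d10 and Cyp2a5 and 1 of Cyp2j5, although its hepatocyte markers were the highest of the group. The common coefficient of biological variation was 0.888.

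Of the 99 genes, 97 matched the GENCODE M21 annotation of GRCm38, and 71 lie in 8 clusters of neighbouring P450 genes. The cluster of 8 Cyp2d genes on chromosome 15 (chr15:82370527-82794294) held 2 of the 5 genes called higher in wild-type mice after CCl4. Its Cyp2d22, on the broad list, had a log2 fold change of 2.86 (SE 1.22, edgeR adjusted p = 0.186). The cluster of 14 Cyp2c genes on chromosome 19 (chr19:39007019-40187333) had reads for 12 genes, 4 of them tested. Near-identical neighbours limit the reading of single genes. For 32 of 97 genes some 50-base window of the last 300 transcript bases also occurs in another gene's transcripts. Cyp3a41a and Cyp3a41b share all windows and were at 0 in every library, so their 0 is uncertain where reads with several matches were dropped. Cyp4a12a shares 51.4% of its windows with Cyp4a12b, Cyp2d26 shares 26.7% and Cyp2d10 13.5% with other 2D genes, and Cyp2e1 shares 33.9% with many genes, of which Cyp4x1 alone is a P450 gene. Cyp26b1, Cyp2j5 and Cyp7b1 share none.

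Promoter sequence was looked at for letters that the genes have in common. RefSeq start sites on GRCm38.p6 gave 86 promoters (300 bases around the start, most of them before it) for 76 of the 99 genes. The letters CAAAGTCCA, a binding sequence of the hepatocyte factor HNF4A, were searched on both strands. They occurred in 11 of the 86 promoters (12.8%) and in 156 of 32851 promoters of all genes (0.475%). The TATA letters TATAAA, on both strands, occurred in 39.5% of the P450 promoters and 13.6% of all. Of the 11 genes with a match 2 were tested, Cyp3a11 and Cyp2c70, and of the members called above Cyp3a11 alone has one; Cyp4a12a and Cyp7b1 were not searched. The other 4 are Cyp2c65, Cyp3a16, Cyp3a41a and Cyp3a41b, with 0 reads, and the windows of the last 3 are identical. The matches for the 7 genes with reads are shown with 10 bases on each side, on the strand of the gene, the motif in capitals.
Cyp3a11: aagagagtacCAAAGTCCAgtgatgcaaa
Cyp8b1: agcctctgagCAAAGTCCAagggcaggaa
Cyp2c70: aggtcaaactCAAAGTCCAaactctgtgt
Cyp2c67: atcattgagaCAAAGTCCAtttggaagca
Cyp2c68: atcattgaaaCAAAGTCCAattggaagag
Cyp2c40: atcattgagaCAAAGTCCAtttggaagag
Cyp2c69: atcattgagaCAAAGTCCAtttggaagag

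The window of Cyp3a11 lies at chr5:145879945-145879973 and its motif starts 109 bases before the start site; that of Cyp8b1, the sterol 12-hydroxylase of bile acid synthesis, lies at chr9:121916354-121916382 and that of Cyp2c70, the muricholic acid enzyme, at chr19:40187332-40187360. The windows of Cyp2c67, Cyp2c68, Cyp2c40 and Cyp2c69 start at bases 39649149, 39741160, 39812841 and 39886826 of chromosome 19, and those of Cyp2c40 and Cyp2c69 are identical. Cyp2c70 stood at 0 to 12.2 CPM with oil, 13.96 to 212 CPM in wild-type mice after CCl4 and 0 to 40.4 CPM in Trem1-deficient mice, and the first pair of groups do not overlap (log2 fold change 4.52, SE 1.47, edgeR adjusted p = 0.0761). Cyp2c67 had 0 reads with oil, 133 in wild-type CCl4 mice, of which 131 in mouse 5, and 0 in Trem1-deficient mice. Cyp2c69 had 20, 0 and 0 reads in the same order. A match is a description of these letters, not a site.

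Hnf4a itself, the nuclear receptor that holds hepatocyte identity, stood at 1.25 to 21.6 CPM with oil, 29.9 to 78.9 CPM in wild-type mice after CCl4 and 0 to 8.16 CPM in Trem1-deficient mice. The 2 CCl4 groups do not overlap, and the log2 fold change between them was -3.67 (SE 0.99, edgeR adjusted p = 0.0451). With Trem1-deficient mice 3 to 5 alone it was -3.95 and no longer passed (SE 1.31, edgeR adjusted p = 0.171). That of wild-type CCl4 against oil was 2.09 (SE 0.93, edgeR adjusted p = 0.212). Of 20 regulators of P450 genes 13 were tested. In wild-type CCl4 mice against oil 0 were called higher and 2 lower, where 3.04% and 2.09% of all tested genes were. In Trem1-deficient against wild-type CCl4 mice 1 was called higher and 1 lower, where 0.778% and 1.28% of all tested genes were. With Trem1-deficient mice 3 to 5 alone 1 was called higher and 0 lower, where 0.411% and 0.444% of all tested genes were. The 1 was Cebpa (log2 fold change 1.53, SE 0.36, edgeR adjusted p = 0.0324). With all 5 Trem1-deficient mice Cebpa did not pass (1.14, SE 0.36, edgeR adjusted p = 0.0885). Nr1h3, the oxysterol receptor LXR alpha that Kupffer cells also express, fell from 616 to 954 CPM with oil to 6.92 to 300 CPM in wild-type mice after CCl4 (log2 fold change -2.12, SE 0.50, edgeR adjusted p = 0.0143). It stood at 607 to 880 CPM in Trem1-deficient mice (log2 fold change against wild-type CCl4 mice 1.95, SE 0.50, edgeR adjusted p = 0.0451). With Trem1-deficient mice 3 to 5 alone that difference was 2.06 and no longer passed (SE 0.54, edgeR adjusted p = 0.0828). Rxra, its partner receptor, had a log2 fold change of -1.43 (SE 0.40, edgeR adjusted p = 0.0321) for wild-type CCl4 against oil. The Kupffer cell marker sum given above was lower in the same mice, and its part in these 2 changes was not tested.

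Of 20 genes of electron transfer and haem handling 17 were tested. For wild-type CCl4 against oil 1 rose and 1 fell, and for Trem1-deficient against wild-type CCl4 mice 0 were called in edgeR. There 5 had an unadjusted p under 0.05, as had 1365 of all 9001 tested genes. With the shares of all genes given above, such counts among 17 genes set the list apart in no way. Por, the reductase that feeds electrons to the microsomal P450 enzymes, stood at 58.3, 18.8, 138, 98.9 and 58.8 CPM with oil and at 240, 391, 419, 372 and 927 CPM in wild-type mice after CCl4. The groups do not overlap (log2 fold change 2.65, SE 0.44, edgeR adjusted p = 2.23e-04). It stood at 126 to 312 CPM in Trem1-deficient mice, where the log2 fold change against wild-type CCl4 mice was -1.22 (SE 0.42, edgeR adjusted p = 0.131). Blvra, the biliverdin reductase, fell by 1.76 on the log2 scale (SE 0.49, edgeR adjusted p = 0.0328). Of 28 genes of conjugation and transport 19 were tested. Abcc2, the canalicular export pump for conjugates, was the single one called: it was higher in wild-type CCl4 mice than with oil (log2 fold change 3.25, SE 0.75, edgeR adjusted p = 0.0144) and lower in Trem1-deficient than in wild-type CCl4 mice (-2.93, SE 0.73, edgeR adjusted p = 0.0451). Its level was 11.5 to 94.9 CPM with oil, 167 to 1492 CPM in wild-type CCl4 mice and 15.2 to 136 CPM in Trem1-deficient mice. With Trem1-deficient mice 3 to 5 alone the last difference was -2.40 (SE 0.73, edgeR adjusted p = 0.143).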

How the data were processed

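Kupffer cells had been isolated by collagenase digestion, a low-speed spin, a density gradient and magnetic beads, and 3' tag libraries (QuantSeq) made from their RNA, per the labels' protocols. The authors deposited raw read counts per gene, 1 column per mouse. The submitters' processing notes list Trimmomatic, STAR 2.5.1a, Partek 6.6 and mm10. Annotation and strand setting were not given in the sources used here. Reads of overlapping or antisense genes cannot be told apart. Lines that name no gene (4 of 24415) were left out; genes took 12.6 to 28.8% of all reads. P-values set a difference between groups against the spread between the mice of a group. That spread does not cover the index series, which in wild-type mice goes with the treatment.

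Counts were fitted in edgeR 4.0.16 (R 4.3.3) with TMM scaling, filterByExpr by group (about 7.26 CPM in 5 libraries), 1 quasi-likelihood fit of 15 mice with 12 residual degrees of freedom, and Benjamini-Hochberg adjustment over 9001 genes. A second fit split the Trem1-deficient mice by index series (11 degrees of freedom). DESeq2 1.42.0, other scalings, filters and left-out mice were alternatives. Cyp2e1 ratios (pseudocount 1 CPM) had exact two-sided permutation tests. Summed list levels are CPM of the library total. In simulated data the fit found 31.1% of 4-fold and 43.0% of 8-fold changes for wild-type CCl4 against oil. For Trem1-deficient against wild-type CCl4 mice it found 17.1% and 43.75%. A gene that was not called may therefore still differ. The lowest chi-square per degree of freedom between libraries of a group was 10.2, so none was a repeat.

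The members, gene lists and tests were chosen with earlier results of these data known. Named by rule were Cyp2e1, every member called, the 4 tested members of highest mean level in each P450 list (hepatocyte, broad or myeloid, male, female, pericentral, periportal, family 4, sterol and vitamin forms) and called genes of the partner lists. Cyp2c70, Cyp2c67, Cyp2c68, Cyp2c69, Cyp2c40, Cyp8b1, Cyp2d13, Cyp2a4, Cyp2b9, Cyp2b10, Cyp2b13, Cyp17a1, Cyp4a10, Cyp4x1, Cyp2c65, Cyp3a16, Cyp3a41a and Cyp3a41b were named after their values were seen.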

Additional observations from a re-analysis of the deposited data

Results flagged for a closer look

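Of 81 groups of 5 mice checked over the reported items, 20 had a mouse far outside the other 4. Normally distributed values would give about 1 in 20 groups. That rate need not hold for these CPM, many of them low or 0, and the items share genes. The 20 are therefore a description and no measured excess. In 19 of the 20 groups the outlying mouse was the highest. In the oil group these were Cyp1a2 in mouse 2 (247.9 CPM, next 50.72), Cyp4b1 in mouse 2 (86.39 CPM), Cyp2d9 in mouse 1 (19.73 CPM, all others 0) and Cyp3a11 in mouse 1 (84.55 CPM), and Cyp7a1 was at 0 in mouse 2 alone. In wild-type mice after CCl4, mouse 5 stood out for Cyp2a12 (622.6 CPM), Cyp2a5 (242.1 CPM), Cyp2c37 (188.2 CPM), Cyp2f2 (528.5 CPM) and the sum of hepatocyte forms (4139 CPM). Mouse 1 did so for Cyp26b1 (1340 CPM, next 151.7) and Cyp7a1 (9.307 CPM), and mouse 2 for the sum of broad or myeloid forms (308.8 CPM). In Trem1-deficient mice, mouse 5 stood out for Cyp2a5 (88.47 CPM), Cyp2e1 (66.79 CPM), Cyp2f2 (75 CPM) and Cyp4a14 (111.3 CPM), and mouse 4 for Cyp2j5 (48.97 CPM), Cyp4v3 (89.79 CPM) and Cyp7b1 (37.55 CPM, all others 0).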

How the results depend on the processing

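For wild-type CCl4 against oil, the 5 members called higher became 10 with DESeq2 and 12 without a filter beyond 1 count. They became 0 with the index series as an additive term, where 37 of all tested genes were called. Leaving out a mouse gave 2 to 8. For Trem1-deficient against wild-type CCl4 mice, the 4 called lower became 10 without the filter and 2 with at least 10 counts in every library of a group. They became 2 with only the groups compared in the fit. With the index series in the fit or held fixed they became 0, where 77 of all tested genes were called in each case. Leaving out a mouse gave 0 to 4 lower and 0 to 1 higher. For Trem1-deficient mice against oil, leaving out the filter gave 2 higher and 2 lower. Between the index series of Trem1-deficient mice 1 was called higher with DESeq2, without the filter and with only the groups compared. Cyp2e1 against oil reversed to -3.43 with the index series in the fit. Cyp2e1 per hepatocyte marker level, Trem1-deficient against oil, ranged from -1.87 to -0.84 when a mouse was left out.

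The mouse numbers do not pair the samples: of 15 same-number pairs 0 had a correlation over 0.1, the range was -0.058 to 0.041, and 2 of 15 samples matched best with their own number. With the number as a replicate block, 5 members were higher for wild-type CCl4 against oil and 4 lower for Trem1-deficient against wild-type CCl4 mice. The 4 were not the same genes: Cyp2c37 (adjusted p in edgeR 0.119) and Cyp3a11 (0.159) were replaced by Cyp2d10 and Cyp7b1. RLE scaling kept both counts, and library-total scaling gave 4 and 4; the median of all genes moved by over 0.1 under library totals (from 0.06 to -0.13 and from -0.03 to 0.26). Depth and the wide spread between mice limit all single-gene values.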
